A study of Homo sapiens with 38 samples.

Results

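The 9 genes described here write, read or remove DNA methylation, and they were taken by symbol from a table of 25504 genes. DNMT1, DNMT3A and DNMT3B encode the DNA methyltransferases, UHRF1 and MBD2 encode proteins that bind methylated or hemimethylated CpG, and TET1, TET2, TET3 and TDG encode enzymes of active demethylation. Each of the 9 was listed once. RNA was sequenced in 8 libraries of RKO, an established human line from colorectal cancer, and they represent this 1 line only. The cells received 0.1% DMSO alone or 2 μM of NCD38, NCD38-β2P4 or NCD38-β2PIPP in 0.1% DMSO, and RNA was collected on day 30 or day 4, with 1 library for each of the 8 conditions. The doses are those of the sample labels, whereas the Methods of the study give the day 4 dose in millimolar units, and the labels spell the last compound in 2 ways. NCD38 inhibits the histone demethylase LSD1, and the conjugates join it through a β-alanine linker to a pyrrole-imidazole polyamide, a DNA-binding ligand. The polyamide of NCD38-β2P4 was designed for runs of A or T, and that of NCD38-β2PIPP for a CG pair with A or T on both sides.

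DNA methylation in mammals lies mainly on the cytosine of CpG pairs. After replication UHRF1 recognises the hemimethylated CpG and brings in DNMT1, which copies the mark to the new strand, whereas DNMT3A and DNMT3B set it on unmethylated sites. TET enzymes oxidise the methyl group, TDG cuts out the oxidised base for repair, and MBD2 brings the NuRD deacetylase complex to methylated CpG. RKO belongs to the colorectal cancer lines with heavily methylated CpG islands.

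The values are fragments per kilobase of exon, scaled to the mapped fragments of the library (FPKM). They are divided by transcript length, so levels of different genes can be set side by side. A dependence on GC content remains, as described below, and the 7 tested genes range from 39.0% to 55.7%. The depth estimated from the lowest FPKM values was 12300000 to 22800000 fragments per library, and 10865 genes reached a mean of at least 1 FPKM and were tested. Among them 7 of the 9 genes passed, and TET1 and TET2 did not. The labelled cell type was checked against marker genes. The epithelial keratin genes KRT18, at 76.2 to 121 FPKM, and KRT8, at 6.58 to 19.0 FPKM, and CDX2, the intestinal transcription factor gene, at 7.49 to 11.6 FPKM, were expressed in the 8 libraries. However, 4 of the 8 epithelial genes stayed below 1 FPKM in the 8 libraries (KRT19, CDH1, VIL1 and KRT20), and VIL1 and KRT20, 2 markers of intestinal epithelium, were listed at 0. The remaining gene, EPCAM, differed by day. It was at 0.0923 to 0.867 FPKM on day 4 and at 3.94 to 6.54 FPKM on day 30. The 9 leukocyte, endothelial and fibroblast genes summed to at most 0.0270 FPKM in a library, and 6 of them were listed at 0, including PTPRC, PECAM1 and DCN. VWF, COL1A1 and COL1A2 did not exceed 0.0152, 0.0129 and 0.0148 FPKM. Within a bulk library, fewer cells that express a gene and less RNA of it per cell cannot be told apart.

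**Figure D1:**
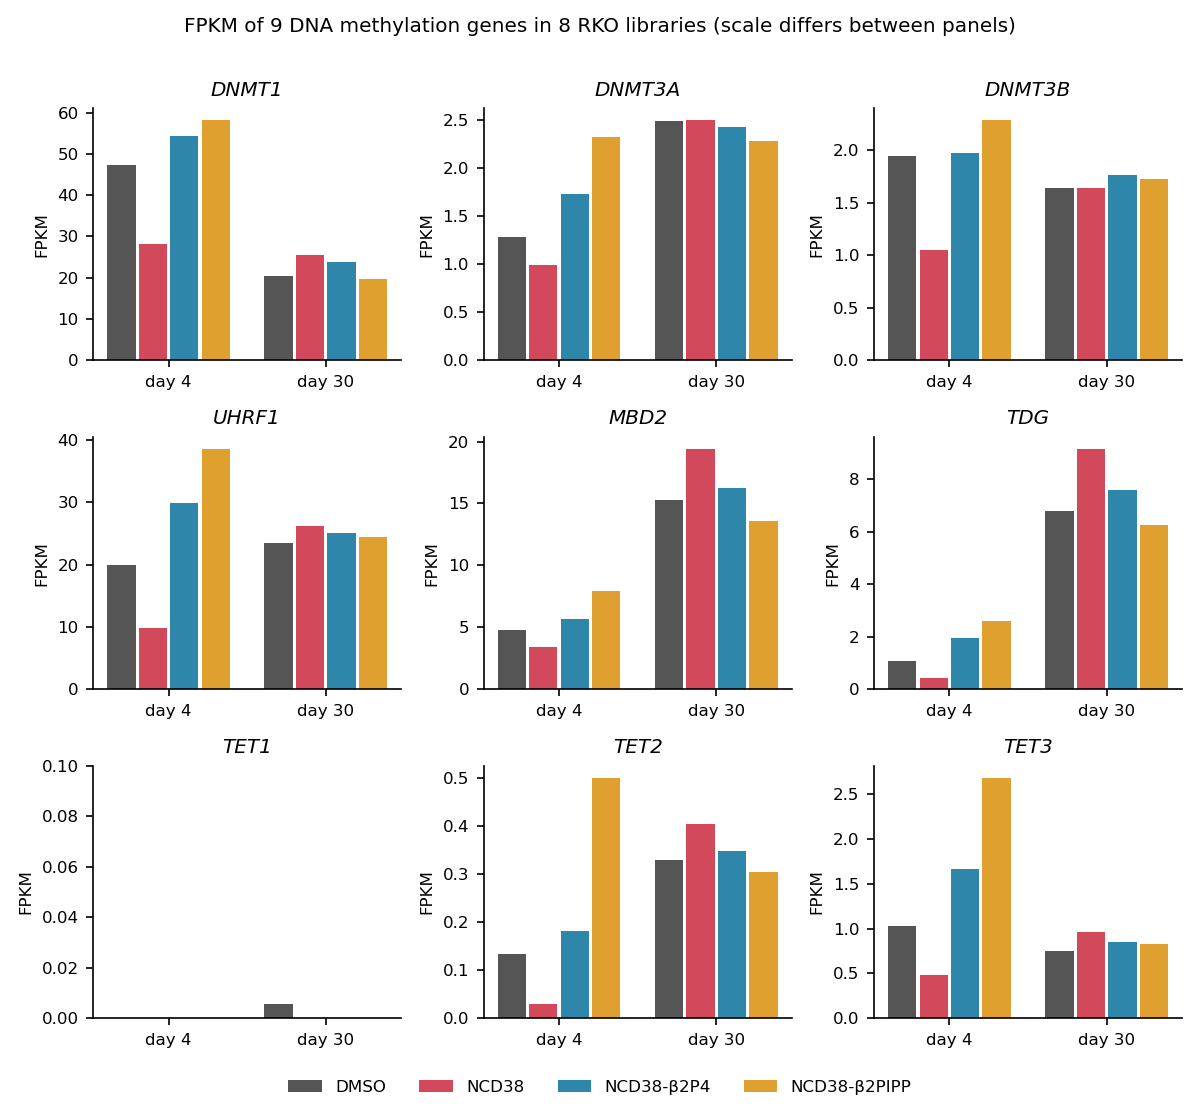
Bars give the FPKM of each of the 9 genes in the 8 libraries, 1 bar per library, grouped by day and coloured by treatment, with a y axis that starts at 0 and differs between panels. DNMT1 lay at 28.1 FPKM or more in the day 4 libraries and at 25.6 FPKM or less in the day 30 libraries, TDG and MBD2 lay lower on day 4, and TET1 was listed at 0 in 7 of 8 libraries. The share of the tested genes whose days do not overlap is not given.

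The order of the 9 genes was the same in the 4 day 30 libraries. The orders given here are of FPKM as listed, with no trend of GC content subtracted. UHRF1 was the highest, followed by DNMT1, MBD2, TDG, DNMT3A, DNMT3B, TET3, TET2 and TET1. UHRF1 at 24.8 ± 1.14 FPKM and DNMT1 at 22.4 ± 2.80 FPKM (mean ± SD, n = 4 libraries of different treatments) overlapped in range over the libraries, although UHRF1 was above DNMT1 within each library. The ranges of MBD2, TDG, DNMT3A, DNMT3B, TET3, TET2 and TET1 did not overlap with one another. On day 4 DNMT1 was the highest in each library, UHRF1 the second and MBD2 the third. Below them DNMT3A, DNMT3B, TDG and TET3 changed places from library to library, with overlapping ranges, and TET2 and TET1 stayed the lowest. The day 4 libraries also differed more among themselves: the highest library exceeded the lowest by 2.07-fold for DNMT1, 3.94-fold for UHRF1, 5.60-fold for TET3 and 5.98-fold for TDG, against 1.31-fold, 1.12-fold, 1.28-fold and 1.46-fold on day 30.

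Expression on day 30 was compared with that on day 4 over the 4 treatments. Of the 7 genes tested, 3 differed at an adjusted p under 0.05 (limma, Benjamini-Hochberg over 10865 genes). TDG and MBD2 were higher on day 30, and DNMT1 was lower. This share is to be read against the background, since 61.9% of the tested genes passed, with 30.2% higher and 31.7% lower on day 30. The median log2 difference was 0.17 over the 7 genes and -0.02 over the tested genes. Each condition had 1 library, so the 4 treatments took the place of replicates, and the p-values measure the spread between these libraries only. Day, the age of the culture and any difference in when the libraries were made cannot be told apart.

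DNMT1, which maintains methylation behind the replication fork, fell between day 4 and day 30. On day 4 its level was 47.2 FPKM after DMSO, 28.1 after NCD38, 54.3 after NCD38-β2P4 and 58.2 after NCD38-β2PIPP. By day 30 the level was 20.5 FPKM after DMSO, 25.6 after NCD38, 23.8 after NCD38-β2P4 and 19.6 after NCD38-β2PIPP. The groups did not overlap, although the NCD38 libraries of the 2 days lay close together. The share of the tested genes without overlap between the days is not given. The difference was -0.99 on the log2(FPKM + 1) scale (SE 0.24, limma adjusted p = 0.0159). It was -0.39 and did not pass once the trend of GC content over the genes was subtracted (limma adjusted p = 0.13). The call also did not hold with each library left out in turn: without a DMSO library or a NCD38-β2P4 library the log2 difference was -0.94 (limma adjusted p from 0.0702 to 0.0764), and without the NCD38-β2PIPP library of day 4 it was -0.82 (limma adjusted p = 0.0505). It held at -1.28 without either NCD38 library, and at -0.82 without the NCD38-β2PIPP library of day 30 (limma adjusted p = 0.0497).

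UHRF1, the partner that recruits DNMT1 to hemimethylated CpG, did not pass the test. On day 4 its level was 19.99 FPKM after DMSO, 9.78 after NCD38, 29.9 after NCD38-β2P4 and 38.5 after NCD38-β2PIPP. The day 30 levels were 23.4 FPKM after DMSO, 26.1 after NCD38, 25.1 after NCD38-β2P4 and 24.5 after NCD38-β2PIPP, all of which fell inside the day 4 range. The log2 difference was 0.17 (SE 0.33, 95% interval -0.661 to 0.995, limma adjusted p = 0.68), and it was -0.22 without either NCD38 library. Within a library, the ratio of DNMT1 to UHRF1 is free of any scaling of the library. It was 2.36 after DMSO, 2.88 after NCD38, 1.81 after NCD38-β2P4 and 1.51 after NCD38-β2PIPP on day 4. The day 30 ratios were 0.874, 0.979, 0.949 and 0.801 in the same order. So DNMT1 exceeded UHRF1 in the 4 day 4 libraries and stayed below it in the 4 day 30 libraries. Their transcripts have close GC contents, 54.9% for DNMT1 and 55.7% for UHRF1, and lengths of 5274 and 3897 nt.

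Upstream sequences are given for these genes because both conjugates address DNA by sequence and because their genes parted by day. They come from the RefSeq promoter table (build GRCh38.p14), which matched the 9 genes with 20 start sites, and each covers the 250 bases before the start, 5′ to 3′ on the strand of the gene, with CG pairs in capitals. The DNMT1 window lies at chr19:10194954-10195203 on the minus strand and holds 21 CG pairs. UHRF1 has 3 start sites, and the window of site 1, at chr19:4909251-4909500 on the plus strand, is shown and holds 28. The median over 35116 windows of the table was 11 CG pairs.
DNMT1: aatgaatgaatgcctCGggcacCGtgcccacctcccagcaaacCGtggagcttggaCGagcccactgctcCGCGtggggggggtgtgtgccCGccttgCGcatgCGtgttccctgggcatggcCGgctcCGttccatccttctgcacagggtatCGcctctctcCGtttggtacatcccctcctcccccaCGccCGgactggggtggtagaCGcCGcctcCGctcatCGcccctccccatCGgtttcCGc
UHRF1: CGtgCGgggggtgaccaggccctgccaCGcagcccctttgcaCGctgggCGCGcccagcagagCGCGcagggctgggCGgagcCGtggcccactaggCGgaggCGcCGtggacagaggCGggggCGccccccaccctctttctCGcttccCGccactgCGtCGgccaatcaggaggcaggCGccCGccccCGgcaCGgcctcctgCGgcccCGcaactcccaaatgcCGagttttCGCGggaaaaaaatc
The UHRF1 window of start site 1 held 1 match to TTTCCCGC or TTTGGCGC, letters of the type bound by E2F factors, which were searched on both strands. The match begins 14 bases before the start, and 1.93% of the 35116 windows held such a match. The DNMT1 window held none, and neither did the windows of UHRF1 start sites 2 and 3, which hold 32 and 41 CG pairs. The match describes the letters of the window and not the binding of a factor.

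S-phase and G2/M genes were compared between the days beside DNMT1. Of 16 S-phase genes, 10 fell, against 31.7% of the tested genes, 2 rose and 4 did not pass, with a median log2 difference of -0.74 against -0.02 over the tested genes. Their summed level was 775 to 929 FPKM in the day 4 libraries and 411 to 519 FPKM in the day 30 libraries. MCM2, MCM5 and MCM7, subunits of the replicative helicase, fell, with log2 differences of -1.69, -1.41 and -1.65 (limma adjusted p = 0.00086, 0.0023 and 0.00054). Of 12 G2/M genes, 4 fell, 2 rose and 6 did not pass, a smaller share called than the 61.9% of the tested genes, and the median was -0.47. The mitotic genes CCNB1, PLK1 and CDC20 fell, with log2 differences of -0.96, -3.48 and -1.90 (limma adjusted p = 0.020, 0.00041 and 0.0006). In contrast, CDK1, the mitotic kinase gene, and TOP2A, a topoisomerase gene, rose by 2.97 and 1.45 (limma adjusted p = 0.00091 and 0.012). Both were named after their values were seen. With the trend of GC content subtracted the medians of the lists were -0.63 and -0.97. The part of proliferation in the DNMT1 difference was not tested.

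The de novo methyltransferase genes were low, and neither passed the test. DNMT3A stood at 1.28 FPKM after DMSO, 0.990 after NCD38, 1.73 after NCD38-β2P4 and 2.32 after NCD38-β2PIPP on day 4. On day 30 it stood at 2.49, 2.49, 2.43 and 2.28 FPKM in the same order. The groups overlapped by the NCD38-β2PIPP library of day 4. The log2 difference was 0.43 (SE 0.19, limma adjusted p = 0.097), and without the NCD38-β2PIPP library of either day it was 0.58 and passed (limma adjusted p = 0.033 and 0.032). DNMT3B stood at 1.95, 1.05, 1.97 and 2.29 FPKM on day 4 and at 1.64, 1.64, 1.76 and 1.73 FPKM on day 30, in the order DMSO, NCD38, NCD38-β2P4 and NCD38-β2PIPP. Its day 30 libraries lay inside the range of day 4, and the log2 difference was -0.04 (SE 0.17, 95% interval -0.47 to 0.38, limma adjusted p = 0.84). It turned to 0.03 without either NCD38-β2PIPP library.

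The ratios between the methyltransferase genes did not overlap between the days, and no test was run on them. They were chosen with earlier results known, and the share of other pairs of genes without overlap was not measured. Of the single tested genes, 61.9% differed between the days (limma adjusted p under 0.05). The ratio of DNMT3A to DNMT3B was 0.656 after DMSO, 0.942 after NCD38, 0.877 after NCD38-β2P4 and 1.01 after NCD38-β2PIPP on day 4. It was 1.52, 1.52, 1.38 and 1.32 on day 30, above each day 4 library. Their transcripts have GC contents of 53.7% and 53.9%, and canonical lengths of 9421 and 4336 nt, but DNMT3A has isoforms of quite different length, so the level of this ratio rests on the authors' gene model. The ratio of DNMT1 to DNMT3B was 24.2 to 27.5 on day 4 and 11.3 to 15.6 on day 30. DNMT1 took up 92.7% to 93.6% of the summed FPKM of the 3 methyltransferase genes on day 4 and 83.0% to 86.1% on day 30. Hence the day 30 libraries held less DNMT1 for each unit of DNMT3A, DNMT3B and UHRF1.

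TDG, the glycosylase that removes oxidised methylcytosine, rose between day 4 and day 30. It was at 1.08 FPKM after DMSO, 0.436 after NCD38, 1.96 after NCD38-β2P4 and 2.61 after NCD38-β2PIPP on day 4. On day 30 it was at 6.79 FPKM after DMSO, 9.15 after NCD38, 7.57 after NCD38-β2P4 and 6.25 after NCD38-β2PIPP. The lowest day 30 library was above the highest day 4 library, and the share of the tested genes that part in this way is not given. The log2 difference was 1.82 (SE 0.31, limma adjusted p = 0.0047), and with each library left out in turn it ranged from 1.48 to 2.09 and passed. This was the highest of the 7 differences, but with the trend of GC content subtracted it was 0.50, below those of MBD2, DNMT3A, UHRF1 and DNMT3B, and the rank was lost. NCD38 gave the lowest TDG level of day 4 and the highest of day 30. The TDG window at chr12:103965622-103965871 on the plus strand holds 22 CG pairs.
TDG: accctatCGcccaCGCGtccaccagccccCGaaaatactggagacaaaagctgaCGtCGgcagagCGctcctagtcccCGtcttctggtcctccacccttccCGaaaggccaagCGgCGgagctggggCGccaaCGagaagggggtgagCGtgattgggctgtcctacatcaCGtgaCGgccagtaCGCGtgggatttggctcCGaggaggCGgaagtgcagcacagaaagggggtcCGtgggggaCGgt

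MBD2, the methyl-CpG binding subunit of NuRD, rose with it. Its level on day 4 was 4.79 FPKM after DMSO, 3.38 after NCD38, 5.71 after NCD38-β2P4 and 7.91 after NCD38-β2PIPP. On day 30 it was 15.3 FPKM after DMSO, 19.4 after NCD38, 16.2 after NCD38-β2P4 and 13.6 after NCD38-β2PIPP. Again the days did not overlap, with no share of the tested genes to set beside it. The NCD38 libraries were the lowest of day 4 and the highest of day 30. The log2 difference was 1.44 (SE 0.26, limma adjusted p = 0.0054), and with each library left out in turn it ranged from 1.19 to 1.69 and passed. The 8 libraries had the same order in TDG and in MBD2. The ratio of TDG to MBD2 was 0.129 to 0.343 on day 4 and 0.445 to 0.472 on day 30, and no test was run on it. Which of the pair changed by more turned on GC content, since with its trend subtracted MBD2 was at 1.09 and TDG at 0.50. The MBD2 window at chr18:54224670-54224919 on the minus strand holds 21 CG pairs.
MBD2: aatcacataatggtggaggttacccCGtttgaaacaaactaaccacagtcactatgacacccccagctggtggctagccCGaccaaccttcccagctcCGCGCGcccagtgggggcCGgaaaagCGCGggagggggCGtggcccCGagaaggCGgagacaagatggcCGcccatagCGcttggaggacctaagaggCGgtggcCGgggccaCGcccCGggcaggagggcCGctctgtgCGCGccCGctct

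The TET dioxygenase genes had the lowest mean levels of the 9, and TET3 made up most of their sum in each library. TET3 was at 1.03 FPKM after DMSO, 0.479 after NCD38, 1.67 after NCD38-β2P4 and 2.68 after NCD38-β2PIPP on day 4. On day 30 it was at 0.747, 0.959, 0.845 and 0.825 FPKM in the same order, inside the range of day 4. The log2 difference was -0.34 (SE 0.25, 95% interval -0.98 to 0.30, limma adjusted p = 0.29). TET3 took up 84.3% to 94.3% of the summed TET FPKM on day 4 and 69.1% to 73.1% on day 30. The transcripts of TET3 and TET2 differ in GC content, at 53.2% and 41.2%, and its part in these shares was not tested.

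TET2 did not reach the filter on low values. It was at 0.134 FPKM after DMSO, 0.0292 after NCD38, 0.182 after NCD38-β2P4 and 0.5002 after NCD38-β2PIPP on day 4, and at 0.328, 0.404, 0.348 and 0.304 FPKM on day 30. The NCD38-β2PIPP library of day 4 was the highest of the 8 and the NCD38 library of that day the lowest, so the days overlapped. In fragments, as estimated from the depth, the NCD38 library of day 4 held 3.7 and the other libraries 22.1 to 66.4, so differences of TET2 on day 4 rest on few fragments. TET1 was listed at 0.0054 FPKM, about 1 fragment, with DMSO on day 30, and at 0 in the other 7 libraries. An estimate of 0 allows up to 3 fragments, or 0.0137 to 0.0253 FPKM at these depths by counting error alone, and a listed 0 can also be a failed estimate.

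The relation of the day difference to base composition was measured, because TDG and MBD2 have a lower GC content than DNMT1. Over 9890 tested genes with a GENCODE transcript, Spearman's rho between the log2 difference and GC content was -0.70, as a description across genes, which are not independent replicates. In the quintile of genes with the lowest GC content, 30.7% to 41.4%, 95.9% were higher on day 30 and the median log2 difference was 1.35. TDG, with a GC content of 39.0%, is in this quintile and exceeded its median at 1.82. MBD2, with 45.1%, is in the next quintile, where the median was 0.57, and exceeded it at 1.44. DNMT1, DNMT3A, DNMT3B, UHRF1 and TET3 are in the same quintile of 52.8% to 59.0%, where the median was -0.66 and 19.9% were higher on day 30. DNMT1, at -0.99, lay below this median, whereas TET3, DNMT3B, UHRF1 and DNMT3A, at -0.34, -0.04, 0.17 and 0.43, lay above it.

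With the trend of GC content subtracted, 5 of 7 genes passed, against 59.0% of the 9890 genes. TDG and MBD2 stayed higher on day 30 by 0.50 (SE 0.14, limma adjusted p = 0.0137) and 1.09 (SE 0.12, limma adjusted p = 0.00018). DNMT1 was no longer called at -0.39 (limma adjusted p = 0.13). DNMT3A, DNMT3B and UHRF1 then rose by 0.97, 0.51 and 0.80 (limma adjusted p = 0.00076, 0.0081 and 0.039), and TET3 was at 0.17 (limma adjusted p = 0.46). With the trend of transcript length subtracted instead, TET3 fell by 0.56 (limma adjusted p = 0.0015), and the calls of DNMT1, TDG and MBD2 held, against 72.0% of the 9890 genes called. The part of base composition in the day difference was not tested beyond this subtraction. Thus the direction of DNMT3B and TET3, and the calls of DNMT1, DNMT3A, DNMT3B and UHRF1, depended on it.

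**Figure D2:**
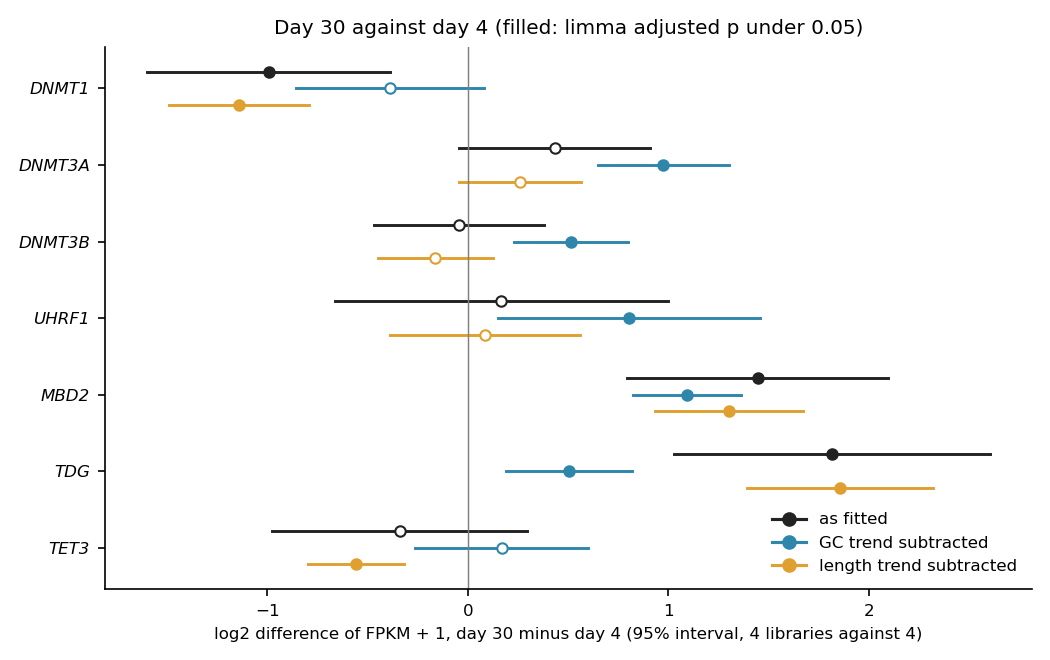
Points give the log2 difference of FPKM + 1 between day 30 and day 4 for the 7 tested genes with 95% intervals, as fitted and with the trend of GC content or transcript length over all genes subtracted, and filled points mark a limma adjusted p under 0.05. TDG and MBD2 lie to the right of 0 in the 3 fits, and DNMT1 moves from -0.99 to -0.39 with GC content.

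The partners of these genes were compared between the days as well, and the counts of each list are to be read against the 61.9% of tested genes that passed, 30.2% higher and 31.7% lower on day 30. Of 10 genes of maintenance methylation, 3 rose (UHRF2, PCNA and HELLS), 3 fell (EHMT1, EHMT2 and LIG1) and 4 did not pass, so the share that passed was near this background. The median log2 difference was 0.50. PCNA, the replication clamp to which DNMT1 binds, rose by 1.01 (limma adjusted p = 0.0098), with 41.2 to 126 FPKM on day 4 and 136 to 190 FPKM on day 30. EHMT2, a histone H3 lysine 9 methyltransferase, fell by 0.75 (limma adjusted p = 0.0041), and CDCA7L was at -0.03 (limma adjusted p = 0.89). As fitted, UHRF2, the paralog of UHRF1, and DNMT1 went in opposite directions. DNMT1 was not called once the trend of GC content was subtracted. The other DNMT family genes were near absent: DNMT3L, the cofactor of de novo methylation in germ cells, was listed at 0 in the 8 libraries, and TRDMT1, a tRNA methyltransferase, was at 0.0292 to 0.0527 FPKM on day 4 and 0.204 to 0.318 FPKM on day 30, below the filter.

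Of 16 genes of demethylation and base excision repair, 15 were tested, 6 rose, 5 fell, 4 did not pass and the median was 0.45. GADD45A, a stress-induced gene also linked to demethylation, rose by 2.39 (limma adjusted p = 0.0013), with 6.56 to 20.5 FPKM on day 4 and 67.1 to 77.2 FPKM on day 30. APEX1, the endonuclease that acts after TDG, fell by 0.74 (limma adjusted p = 0.0027), and IDH2, which makes the TET cosubstrate 2-oxoglutarate, fell by 1.73 (limma adjusted p = 0.0035). As fitted, TDG and the next enzyme of its pathway therefore moved in opposite directions. With the trend of GC content subtracted TDG was at 0.50, and no such value is given for APEX1. MBD4, another glycosylase that acts at mismatched CpG, was among the 6 that rose and was named after its values were seen. On the same list NEIL1 rose by 1.01, NEIL2 fell by 0.97 and SMUG1 did not pass at -0.24.

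Another 7 genes came from the families of methyl-CpG readers, whose members need not all bind methylated CpG. Of these, 5 were tested, ZBTB33 rose, 3 fell (MBD1, MBD3 and ZBTB4) and the median was -0.56. MBD3, the paralog of MBD2, was the highest at 70.2 to 99.4 FPKM on day 4 and 28.6 to 42.3 FPKM on day 30, and it fell by 1.30 (limma adjusted p = 0.00053). MBD1 fell by 0.94 (limma adjusted p = 0.0043), and MBD6 was at -0.20 (limma adjusted p = 0.35). So, as fitted, MBD2 rose while MBD1 and MBD3, which carry a domain of the same family, fell. MBD3 still exceeded MBD2 in FPKM on both days. Values with the trend of GC content subtracted are not given for MBD1 and MBD3. Of the 11 other NuRD genes, 6 fell, 2 rose (MTA3 and HDAC2) and the median was -0.50. The histone deacetylase gene HDAC1 and the scaffold gene MTA2 fell, with log2 differences of -0.50 and -0.86 (limma adjusted p = 0.019 and 0.0015), and MTA1 was at -0.27 (limma adjusted p = 0.068).

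Of 10 genes that supply S-adenosylmethionine, the methyl donor, 5 fell, MTR rose and 4 did not pass, with a median of -0.36. Here too the share that passed was near the background of 61.9%. AHCY, which clears S-adenosylhomocysteine, fell by 1.22 (limma adjusted p = 0.0019) and SHMT2, a serine hydroxymethyltransferase, by 0.97 (limma adjusted p = 0.0091), whereas PHGDH was at -0.26 (limma adjusted p = 0.33). With GC content subtracted, the medians of these lists were -0.11 for maintenance, 0.40 for demethylation, -0.29 for the reader families, -0.23 for NuRD and -0.17 for the methyl donor. The sign of the maintenance list changed.

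Genes that DNA methylation often silences were mostly not expressed. Of 13 CpG island genes often methylated in colorectal cancer, 10 stayed below 1 FPKM in the 8 libraries and 6 of these were listed at 0. The exceptions were MGMT at 31.9 to 69.3 FPKM, SOCS1 at 1.14 to 2.35 FPKM and HIC1 at 1.47 to 7.12 FPKM. Of these HIC1, which encodes a transcriptional repressor, fell by 1.29 (limma adjusted p = 0.0012). MGMT was at -0.35 (limma adjusted p = 0.24) and SOCS1 at -0.01 (limma adjusted p = 0.97). Of 12 germline genes that promoter methylation keeps silent, 12 stayed below 1 FPKM and 7 were listed at 0. SYCP3, MAEL and MAGEA3, the highest of them on average, did not exceed 0.201, 0.0347 and 0.0730 FPKM. Both counts are to be read against the whole table, where low values are common. Of its 25504 genes, 17976 were above 0 in at least 1 library, and 10865 reached a mean of 1 FPKM. DNA methylation was not measured in these samples, and its part in the low levels was not tested.

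The inhibitors were then compared with DMSO and with each other over the 8 libraries together, with day as a block. None of the 7 genes passed in any of the 7 contrasts (limma, adjusted p under 0.05), and none had an unadjusted p under 0.05. Few genes passed at all: 0.0276% of the tested genes for the 3 inhibitors together, 0.0368% for NCD38, 0.0184% for NCD38-β2P4 and 0.0184% for NCD38-β2PIPP against DMSO. The numbers at an unadjusted p under 0.05 were 37, 145, 32 and 62 of 10865 genes. In this fit a response that differs between the days goes into the spread, and 3 residual degrees of freedom were left.

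The intervals show what these contrasts could not resolve. For NCD38 against DMSO, UHRF1 was at -0.40 (95% interval -1.58 to 0.77) and DNMT1 at -0.21 (95% interval -1.07 to 0.65). NCD38-β2P4 against DMSO put UHRF1 at 0.33 (95% interval -0.844 to 1.498) and TDG at 0.32 (95% interval -0.79 to 1.43). NCD38-β2PIPP against DMSO put UHRF1 at 0.49 (95% interval -0.68 to 1.66) and TET3 at 0.46 (95% interval -0.44 to 1.36). A level 2-fold lower for UHRF1 and DNMT1 with NCD38, and 2-fold higher for UHRF1, TDG and TET3 with the conjugates named beside them, was thus inside the intervals.

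The 3 compounds share the NCD38 part and differ in whether a polyamide is attached and in which, and 3 pairs were compared. NCD38-β2P4 against NCD38 gave the largest difference of the 7 genes for UHRF1, 0.73 (95% interval -0.44 to 1.90, limma adjusted p = 0.71), with 0.0092% of the tested genes called. NCD38-β2PIPP against NCD38 gave 0.89 for UHRF1 (95% interval -0.28 to 2.06, limma adjusted p = 0.53), with 0.0184% called. The conjugates against each other, which differ in 1 unit of the polyamide (a pyrrole in NCD38-β2P4 and an imidazole in NCD38-β2PIPP), gave -0.16 for UHRF1 (95% interval -1.33 to 1.01) and -0.22 for TET3 (95% interval -1.13 to 0.68), with 0.0276% called. At an unadjusted p under 0.05 there were 352, 692 and 34 genes for these pairs, none of them among the 7.

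Within a day each inhibitor had 1 library against 1 DMSO library, so no test exists, and the ratios of FPKM + 1 compare those libraries only. A ratio was called past 1.5-fold by size. A half-width of 95% for counting error was estimated from the depth and is set beside the ratio without the added 1. On day 30 none of the 7 genes was past 1.5-fold with any inhibitor, where 6.8% of the tested genes were for NCD38, 2.3% for NCD38-β2P4 and 2.63% for NCD38-β2PIPP. The highest ratios were those of TDG, MBD2 and DNMT1 with NCD38, which were 0.38, 0.33 and 0.31 on the log2 scale. The lowest were those of MBD2 and TDG with NCD38-β2PIPP, at -0.16 and -0.10. DNMT3A and DNMT3B were within 0.1 of DMSO with each compound.

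On day 4, before any trend was subtracted, the ratios of the compounds lay on opposite sides of DMSO. With NCD38 the 8 genes above 0 were lower than with DMSO, with a median log2 ratio of -0.53 over the 7 tested genes against -0.21 over the tested genes. The share of the tested genes that were lower is not given. UHRF1 at -0.96 and DNMT1 at -0.73 were past 1.5-fold lower, 2 of 7 against a background of 22.5%. Without the added 1, the UHRF1 ratio was -1.03 with a half-width of 0.15 and the DNMT1 ratio was -0.75 with 0.08. TDG, at -1.31 with a half-width of 0.76, and TET3, at -1.11 with 0.38, were lower on that scale too. The tested genes as a whole were lower in this NCD38 library, whose factor for scaling by the median ratio was 0.774 against 0.993 to 1.22 in the other libraries. Rescaled by this factor, the median of the tested genes was 0.02, 6 of the 7 genes were lower (DNMT3A was at 0.02), and UHRF1 alone stayed past 1.5-fold, at -0.59, with DNMT1 at -0.34.

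With NCD38-β2PIPP on day 4 the 8 genes were higher than with DMSO. The median was 0.62 over the 7 tested genes against 0.17 over the tested genes. This library had the highest factor for scaling by the median ratio, 1.22. The share of the tested genes that were higher is not given for either conjugate. UHRF1 at 0.91, TET3 at 0.86, TDG at 0.80 and MBD2 at 0.62 were past 1.5-fold higher, 4 of 7 against a background of 27.1%. TET2 was at 1.90 without the added 1, with a half-width of 0.69. With NCD38-β2P4 the 8 genes were also higher, with a median of 0.26 against 0.10, and the highest were UHRF1 at 0.56, TDG at 0.51 and TET3 at 0.39. None was past 1.5-fold, against 9.54% of the tested genes. DNMT3B had the smallest ratios with the conjugates, at 0.01 and 0.16. Rescaled by the median ratio, UHRF1, TET3 and TDG stayed past 1.5-fold with NCD38-β2PIPP, at 0.67, 0.67 and 0.61, and DNMT3B turned to -0.05 with NCD38-β2P4 and -0.01 with NCD38-β2PIPP, while the other 6 genes stayed higher.

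**Figure D3:**
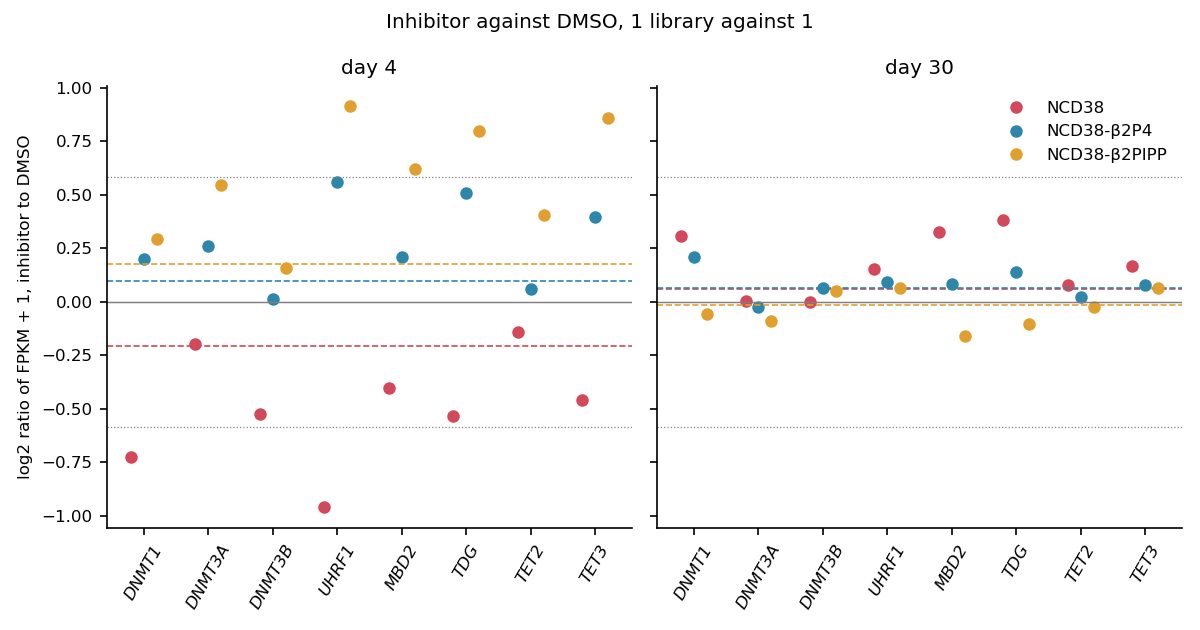
Points give the log2 ratio of FPKM + 1 between each inhibitor library and the DMSO library of its day for the 8 genes above 0, 1 library against 1, with dashed lines at the median of the tested genes for each inhibitor and dotted lines at 1.5-fold. On day 4 NCD38 lies below 0 for the 8 genes and the conjugates above it, and on day 30 the ratios lie between -0.16 and 0.38. The share of the tested genes on each side of 0 is not given.

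These day 4 ratios moved with GC content as well. Over the 9890 genes Spearman's rho with GC content was 0.61 for NCD38, -0.55 for NCD38-β2P4 and -0.71 for NCD38-β2PIPP on day 4, and -0.18, -0.53 and -0.03 on day 30. With the trend subtracted, UHRF1 was still at -0.93 after NCD38, 0.58 after NCD38-β2P4 and 0.96 after NCD38-β2PIPP. In contrast, TDG went from 0.80 to 0.01 and MBD2 from 0.62 to 0.11 with NCD38-β2PIPP, and MBD2 with NCD38 went from -0.41 to 0.19. Thus 2 of 7 genes, UHRF1 and TET3, stayed past 1.5-fold higher with NCD38-β2PIPP, against 5.21% of the 9890 genes, and 2 of 7, UHRF1 and DNMT1, stayed past 1.5-fold lower with NCD38, against 3.83%. With the trend of length subtracted, only UHRF1 was past 1.5-fold lower with NCD38, at -0.62, against 8.52%, and none was past 1.5-fold higher with NCD38-β2PIPP, against 12.9%. Some genes then changed sides of DMSO. DNMT1, DNMT3A and DNMT3B were at -0.20, -0.11 and -0.29 with NCD38-β2PIPP and at -0.04, -0.02 and -0.21 with NCD38-β2P4. MBD2 was at -0.03 with NCD38-β2P4, and DNMT3A and TET3 were at 0.26 and 0.01 with NCD38. The other tested genes of the 7 kept their side. The part of base composition and transcript length in these ratios was not tested further.

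The conjugate ratios of day 4 share their DMSO library with those of NCD38, so the compounds were also set side by side. Against the NCD38 library of the same day, the log2 ratio of UHRF1 was 1.52 for NCD38-β2P4 and 1.88 for NCD38-β2PIPP on day 4, and -0.06 and -0.09 on day 30. The ratios of DNMT1 were 0.93 and 1.02 on day 4, and -0.10 and -0.37 on day 30. Those of TDG were 1.04 and 1.33 on day 4, and -0.24 and -0.49 on day 30. For the 3 genes, the conjugate libraries of day 4 were above the NCD38 library and those of day 30 below it, and the median of the tested genes was 0.30 and 0.45 on day 4 and 0.01 and -0.07 on day 30.

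The letters that the polyamides were designed for were searched in the 20 windows. A CG pair with 2 letters of A or T on each side, which is such a site on both strands, was found in 1 window, the third start site of TET1, against 13.9% of the 35116 windows. It is shown because no other window of the 9 genes held these letters. It lies at chr10:68600224-68600473 on the plus strand, and the match begins 152 bases before the start.
TET1: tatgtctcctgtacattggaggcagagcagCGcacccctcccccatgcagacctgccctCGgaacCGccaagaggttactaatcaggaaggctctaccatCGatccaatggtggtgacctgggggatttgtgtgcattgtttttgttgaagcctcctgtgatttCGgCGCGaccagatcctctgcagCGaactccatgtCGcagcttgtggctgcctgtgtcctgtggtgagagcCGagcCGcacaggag
A run of 6 letters of A or T was found in 6 of the 20 windows, against 58.7% of the windows of the table. Windows of 1 gene can overlap and are not independent. The windows held 3 to 41 CG pairs, 15 of the 20 were above the median of 11, and the window of DNMT3B held the fewest. No match says only that the letters are not in this window. TET1, whose window held the CG match, was listed at 0 with NCD38-β2PIPP on both days.

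The genes whose pattern over the 8 libraries was most like each of the 7 were named among 7095 genes with a mean of at least 5 FPKM, by Pearson's r of log2(FPKM + 1). The 8 libraries share 2 days and fall apart by them, so these values are a description. DNMT1 was most like POLR2D (r = 0.997) and TBP (r = 0.997), DNMT3A most like EIF4G3 (r = 0.999) and DYNC1LI2 (r = 0.995), and DNMT3B most like DYNC1H1 (r = 0.994) and RAB7L1 (r = 0.986). UHRF1 was most like CSTF2T (r = 0.996) and SRRM1 (r = 0.994), and TET3 most like AKAP8 (r = 0.977) and PRDM8 (r = 0.976). NDUFAF4 was among the closest for TDG (r = 0.999) and for MBD2 (r = 0.997), next to EID2 for TDG (r = 0.999) and RRS1 for MBD2 (r = 0.998). The number of genes above 0.95 was 1028 for TDG and 952 for MBD2, 525 for DNMT3A, 333 for DNMT1, 153 for UHRF1, 47 for DNMT3B and 17 for TET3.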

How the data were processed

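RNA-seq of RKO cells was used (8 libraries, 1 for each of 8 conditions), and the 30 ChIP-seq samples were not analysed here. The authors prepared stranded mRNA libraries and deposited FPKM values with no counts. Their Methods name TopHat and Cufflinks, the submitters' processing notes name HISAT2 2.2.1.0, BWA 0.5.9, Cufflinks and bedtools 2.20.1 with no role, and the build is hg19. The annotation is not given in the sources used here. FPKM depends on the gene model, and stretches of identical sequence between paralogs can move it.

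Of 25594 entries, 90 with a repeated name were left out. Groups and days were taken from the sample labels. FPKM was used as log2(FPKM + 1), which understates changes of low genes, and genes with a mean FPKM of at least 1 were tested with limma 3.58.1 (R 4.3.3; treatment + day, moderated with trend, Benjamini-Hochberg over 10865 genes, threshold 0.05). Any effect of treatment that differs by day enters the spread. Within a day, ratios of single libraries were called past 1.5-fold. GC content and length came from the canonical GENCODE release 44 transcript on GRCh37 for 91.0% of tested genes, and their trends were subtracted by lowess (fraction 0.3, statsmodels 0.14.6). Depth was estimated from the FPKM values that 1 fragment gives, so fragments, half-widths and floors are estimates and cover counting error only. Python 3.11.15 with pandas 2.3.3, numpy 2.4.6 and matplotlib 3.10.9 was used. The fit was also run on simulated data with independent noise and few changed genes. These data differ from that setting, so the run does not show how the fit performs on them. Promoter windows are the 250 bases before each RefSeq start (GRCh38.p14), and no coordinates were converted.

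The 9 genes, the 12 lists of 126 genes and the ratios between genes were chosen with earlier results of these data known. A pair of genes first placed on the lists is not reported here. From each list the 3 genes with the highest mean FPKM are named, and for each tested member the 2 most alike genes. Further list genes, such as UHRF2, MBD4, HDAC2, CDK1 and TOP2A, are named by their values. Alternatives changed the pseudocount (0.1 or 0.01), the filter, the scaling, the block, the moderation and the fold (2), subtracted trends and left out each library. A fit with DMSO and NCD38-β2P4 as the only day 4 libraries was added after seeing the data.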

Additional observations from a re-analysis of the deposited data

Results flagged for a closer look

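For 5 genes the ratio of NCD38 to DMSO pointed one way on day 30 and the other way on day 4, by more than counting error on both days. Each day had 1 library per treatment, and the difference between the days was not tested. As the log2 ratio of day 30 minus that of day 4, the change was 1.03 for DNMT1 (0.31 on day 30 and -0.73 on day 4), 1.11 for UHRF1 (0.15 and -0.96), 0.62 for TET3 (0.17 and -0.46), 0.92 for TDG (0.38 and -0.54) and 0.73 for MBD2 (0.33 and -0.41). The 5 genes were higher than with DMSO on day 30 and lower on day 4, and 22.8% of the 9890 genes with a transcript length met the same rule in this direction. Once the trend of GC content was subtracted, MBD2 was higher on both days (0.25 on day 30 and 0.19 on day 4), so that it no longer turned, and TDG was at -0.13 on day 4. After subtraction of the trend of length, TET3 was higher on both days (0.06 on day 30 and 0.01 on day 4) and MBD2 was at -0.02 on day 4. The directions of DNMT1, UHRF1 and TDG held under both. Rescaled by the median ratio, the 5 genes kept their directions, but the day 4 ratios were smaller. They were -0.34 for DNMT1, -0.59 for UHRF1, -0.31 for TET3, -0.40 for TDG and -0.09 for MBD2. With NCD38-β2PIPP the same was seen for MBD2 in the opposite sense, with a change of -0.78 (-0.16 on day 30 and 0.62 on day 4), and it was not tested either. The share of the 9890 genes in this sense was 13.8%, and with GC content subtracted the MBD2 ratio of day 4 was 0.11. These ratios share the DMSO library of each day and are not independent of each other.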

How the results depend on the processing

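The day differences of TDG and MBD2 kept their direction and passed in each alternative that could be fitted. With the trend of GC content subtracted, 5 of 7 genes passed between the days in place of 3: DNMT1 was lost (-0.39) and DNMT3A, DNMT3B and UHRF1 were gained, with DNMT3B reversed at 0.51 and TET3 reversed at 0.17. DNMT3A also passed without the treatment block and with rescaling by the median ratio (limma adjusted p = 0.049 and 0.039). With each library left out in turn, the count lay between 2 and 4. DNMT3B ranged from -0.18 to 0.03, and UHRF1 from -0.22 to 0.43. With DMSO and NCD38-β2P4 as the only day 4 libraries, 4 genes passed, DNMT3A being gained at 0.47, and UHRF1 was at -0.01. Leaving out either library of a treatment gave the same estimate, since the other is then fitted exactly. The contrasts between treatments gave 0 of 7 in each alternative. Within day 4, the number of 7 genes past 1.5-fold with NCD38 was 2, and it became 5 with a pseudocount of 0.1 and 5 with 0.01, 1 with rescaling, 1 with the length trend subtracted and 0 at 2-fold. For NCD38-β2P4 it was 0 and became 2 with either smaller pseudocount (TET3 and TDG). For NCD38-β2PIPP it was 4 and became 2 with GC content subtracted, 0 with length subtracted and 0 at 2-fold. The cause was not tested, except that smaller pseudocounts enlarge the ratios of low genes by construction. TET1 and TET2 could be fitted only without the filter on low values, where their log2 differences between the days were 0.00 and 0.17 (limma adjusted p = 0.89 and 0.30). The days were paired by treatment, which was the block of the fit, and the labels give no replicate numbers by which to pair libraries otherwise.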
